A study of Mus musculus with 6 samples.

Results

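Actins are the proteins that polymerize into the thin filaments of muscle and the microfilaments of every cell, and tropomyosins are the rod-shaped proteins that lie along those filaments and, with troponin, set when myosin can bind. In the mammalian heart the sarcomeric actin genes Actc1 and Acta1 and the smooth muscle actin gene Acta2 are used at different stages, with Acta2 active in the early myocardium and Actc1 dominant later. Many actin genes carry CArG boxes, the sites bound by serum response factor (SRF), whose cofactors of the myocardin family respond to the pool of free actin monomers.

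The 10 genes described here are the 6 actin genes Actc1, Acta1, Acta2, Actg2, Actb and Actg1 and the 4 tropomyosin genes Tpm1, Tpm2, Tpm3 and Tpm4. They were chosen by name, mapped to Ensembl identifiers of the GRCm38 genome, and are 10 of the 43629 genes in the count files. All 10 passed the filter on low counts and are among the 15470 genes tested.

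RNA-Seq was run on primary cardiomyocytes from the heart ventricles of CD-1 mouse embryos at embryonic day 13.5. The cells were cultured for 48 h, transfected with either negative siRNA or DNMT1 siRNA (a pool of siRNAs against the maintenance DNA methyltransferase) at 12 nM, collected after 72 h and sorted magnetically for the surface protein VCAM1. Each treatment had 3 cultures, the labels name no genetic change in either group, and poly(A) RNA was sequenced. The sample titles name DNMT1 while the treatment tag of the same 3 samples names DNMT3a siRNA, and in the counts Dnmt1 stood at 24.5% and Dnmt3a at 118% of their level with negative siRNA. The sources used here do not say whether the 3 cultures came from separate litters, so p-values measure the spread between these cultures, which may be technical.

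Reads on genes numbered 27852412 to 35896018 per negative siRNA culture and 13739561 to 16186310 per DNMT1 siRNA culture. Negative siRNA replicate 2 stood apart from the other negative siRNA cultures on the second principal component. It was the highest negative siRNA culture for 9 of the 10 genes, Actg1 being the exception, so values without it are given below where they differ. The defining markers were checked against the cell type label. The summed level of 11 cardiomyocyte markers was 470 to 611 RPKM (CPM, which are reads scaled to library size with edgeR's TMM factors, divided by exon length in kb) with negative siRNA and 821 to 1006 with DNMT1 siRNA. That of 8 fibroblast markers was 4596 to 6994 and 3472 to 3685 RPKM, above the cardiomyocyte sum in every culture, of which 3 collagens made up 4361 to 6753 and 3278 to 3479. The other 5 fibroblast markers summed to 235 to 246 RPKM with negative siRNA and 194 to 207 with DNMT1 siRNA, below the cardiomyocyte sum in every culture. The sum of 6 epicardial markers was 509 to 598 and 577 to 605 RPKM, above the cardiomyocyte sum in negative siRNA replicates 1 and 3 only. That of 8 smooth muscle markers was 933.5 to 1551 and 875 to 937.2 RPKM, above the cardiomyocyte sum in all cultures but DNMT1 siRNA replicates 1 and 2. Those of 6 endothelial and 5 macrophage markers stayed below 21.0 RPKM in every culture. In bulk RNA, fewer cells of a type and less RNA per cell cannot be told apart.

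The upstream sequences of the sarcomeric actin genes are shown first because Actc1, which had the largest change among the 10 genes, holds a row of CArG-like sites there. They were picked with that change known, and the part of such sites in it was not tested. Windows from 250 bases before to 50 bases after the RefSeq start (build GRCm38.p6) were found for 8 of the 10 genes, all but Actg2 and Actb, with more than 1 start for Tpm3. Printed are the parts outside annotated exons, on the gene's strand. The capitals mark CArG boxes (CC, then any 6 of A or T, then GG, a pattern that reads the same way on both strands) and sites with 1 base of the inner 6 exchanged for G or C. The Actc1 stretch is chr2:114052888-114053125 on the minus strand, inside the annotated gene but outside its exons, since a longer annotated transcript starts further upstream. The Acta1 stretch is chr8:123894776-123895025, also on the minus strand and upstream of the annotated gene.
Actc1: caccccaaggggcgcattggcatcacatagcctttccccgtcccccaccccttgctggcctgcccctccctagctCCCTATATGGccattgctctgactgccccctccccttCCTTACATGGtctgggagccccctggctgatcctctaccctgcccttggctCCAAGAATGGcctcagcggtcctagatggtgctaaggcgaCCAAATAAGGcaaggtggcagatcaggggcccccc
Acta1: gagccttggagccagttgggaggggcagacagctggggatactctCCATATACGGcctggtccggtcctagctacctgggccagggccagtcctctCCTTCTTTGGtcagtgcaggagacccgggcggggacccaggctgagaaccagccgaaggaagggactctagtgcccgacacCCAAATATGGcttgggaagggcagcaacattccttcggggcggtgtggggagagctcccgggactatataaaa

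Actc1 held 1 exact CArG box, 47 bases before the start, and 3 further sites with 1 mismatch, at 87, 138 and 175 bases. Acta1 held 1 exact box at 73 bases and a further 2 with 1 mismatch, at 154 and 205 bases. An exact CArG box was present in 1.63% of all 32851 RefSeq promoter windows of the same length, and a box with at most 1 mismatch in 9.98%. Of the other actins, Actg1 held 1 exact box at 90 bases, and Acta2 held 2 sites with 1 mismatch, at 84 and 34 bases before its start. These sites are shown with 10 bases on each side, since the Actg1 box is the exact match of a cytoplasmic actin and the Acta2 sites lie within annotated exon sequence. The Actg1 site is chr11:120348566-120348595, and the Acta2 sites are chr19:34255438-34255467 and chr19:34255388-34255417, all on the minus strand.
Actg1 at 90 bases: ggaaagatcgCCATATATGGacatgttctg
Acta2 at 84 bases: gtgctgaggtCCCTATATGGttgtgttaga
Acta2 at 34 bases: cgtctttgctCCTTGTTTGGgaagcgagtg

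Among the tropomyosins, no window of Tpm1, Tpm2 or Tpm4 held these letters with at most 1 mismatch, and each of the Tpm3 windows held 1 such site. The count of CG pairs, the bases that DNA methyltransferases act on, was 7 in the Actc1 window of 300 bases, 12 in that of Acta1 and 6 in that of Acta2. It was 50 in that of Actg1, 20 in Tpm2, 27 in Tpm1, 31 in Tpm4 and 3 and 15 in the windows of Tpm3, beside a median of 7 (quartiles 3 and 20) over all windows. A match is a description of the letters, and methylation was not analysed here.

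Of the 10 genes, Actc1 rose with DNMT1 siRNA and none of the others passed both limits of the test. Called genes had an FDR below 0.05 in edgeR's quasi-likelihood test (Benjamini-Hochberg adjustment over 15470 genes) and a fold change above 1.5, and 6.49% of all tested genes were called, 4.26% higher and 2.23% lower. The share called among the 10 genes was near that background. The groups did not overlap in 5 of the 10 genes, with Actc1 higher and Acta2, Actb, Tpm1 and Tpm4 lower, beside 36.0% of all tested genes (18.3% higher, 17.7% lower). Of the 10 log2 fold changes 3 were above 0, as were 49.3% over all tested genes, and 7 below, with a median of -0.18 against -0.0049 over all tested genes.

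**Figure D1:**
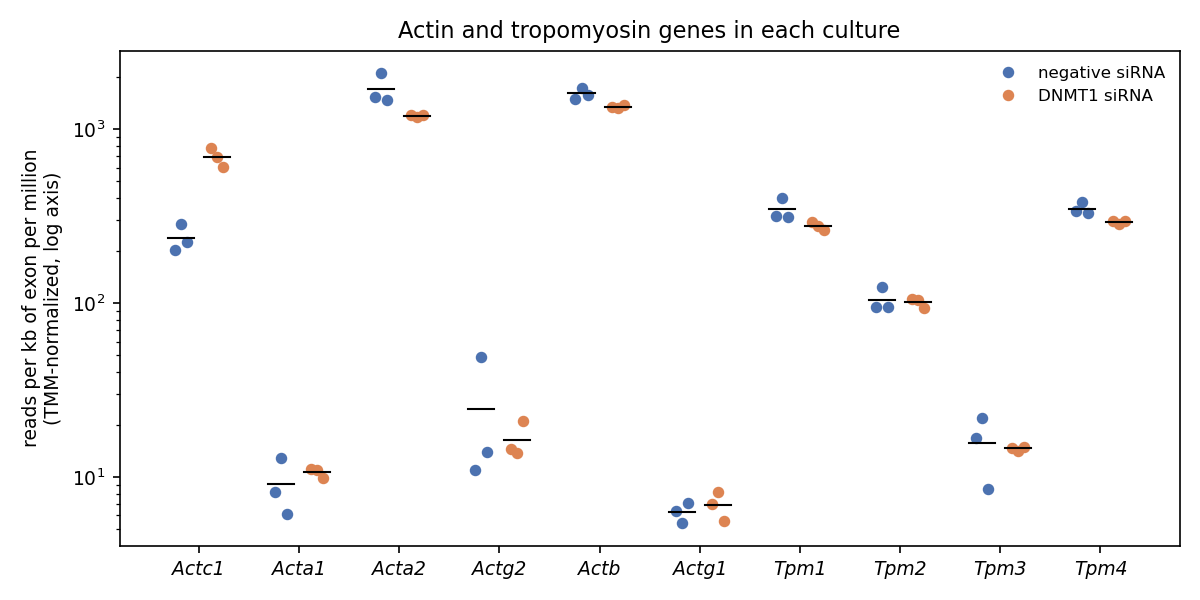
Level of each of the 10 genes in each culture, in RPKM on a log axis, for negative siRNA (blue) and DNMT1 siRNA (orange), with 1 point per culture and a bar at the mean of 3. The orange points of Actc1 (605 to 778) lie above its blue points (202 to 286), while those of Acta2, Actb, Tpm1 and Tpm4 lie below theirs.

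Actc1 (ENSMUSG00000068614, chromosome 2 of GRCm38, 114047282 to 114053548, minus strand) encodes cardiac alpha-actin, the main actin of the adult heart's sarcomeres. Its level was 202, 286 and 223 RPKM in the negative siRNA cultures and 778, 687 and 605 in the DNMT1 siRNA cultures. Every DNMT1 siRNA culture thus lay above every negative siRNA culture, and the gap between the groups exceeded the range within each. Means were 237 ± 43.8 and 690 ± 86.4 RPKM (SD, n = 3 each). The log2 fold change was 1.54 (SE 0.144, 95% interval 1.21 to 1.87), a 2.91-fold rise, with an adjusted p of 0.00103 in edgeR's quasi-likelihood test. These values rest on 10092 to 14592 reads per culture with negative siRNA and 13025 to 20400 with DNMT1 siRNA, although the latter libraries were smaller. Ranked by CPM over the 43629 genes in the count files, Actc1 moved from place 319 to place 72. Actc1 was called in each of the fits that left out 1 culture, with log2 fold changes from 1.42 to 1.70.

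Beside Actc1, 8 of the 11 cardiomyocyte markers were called higher, where 4.26% of all tested genes were, and none lower, and the summed marker level did not overlap between the groups. The marker Vcam1, the protein used for the sort, had means of 33.4 RPKM with negative siRNA and 27.9 with DNMT1 siRNA. Their part in the result was not tested. The genes whose log2 CPM followed Actc1 most closely over the 6 cultures, among 5632 genes of moderate or high level, were Mybpc3 (cardiac myosin binding protein C) with r = 0.998, Ogdh (a subunit of the mitochondrial oxoglutarate dehydrogenase) with r = 0.998 and Nppa (atrial natriuretic peptide) with r = 0.997. These correlations are a description over 6 libraries that fall into treatment groups, so a shared difference between treatments enters each of them. Of these, Mybpc3 had 1.504 as its log2 fold change (edgeR adjusted p = 0.00153), Ogdh 0.51 (adjusted p = 0.00493) and Nppa 1.65 (adjusted p = 0.0023).

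Acta1 (ENSMUSG00000031972, chromosome 8, 123891769 to 123894751, minus strand) encodes skeletal alpha-actin, which the embryonic heart also uses. It was low here, with 8.16, 12.9 and 6.13 RPKM in the negative siRNA cultures and 11.1, 11.0 and 9.79 in the DNMT1 siRNA cultures. The groups overlapped, because negative siRNA replicate 2 lay above all DNMT1 siRNA cultures. The log2 fold change was 0.23 (SE 0.242, 95% interval -0.32 to 0.79, adjusted p = 0.564, edgeR). Without negative siRNA replicate 2 it was 0.57 (adjusted p = 0.0275), still short of the limit on fold change. Its reads numbered 200 to 624 per culture. The ratio of Acta1 to Actc1 was 0.0404, 0.0451 and 0.0275 with negative siRNA and 0.0143, 0.016 and 0.0162 with DNMT1 siRNA. This ratio was lower in all 3 DNMT1 siRNA cultures (log2 difference -1.25).

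Acta2 (ENSMUSG00000035783, chromosome 19, 34241090 to 34255590, minus strand) encodes smooth muscle alpha-actin, found in smooth muscle, in myofibroblasts and in the early myocardium. Its level was 1520, 2092 and 1459 RPKM with negative siRNA and 1209, 1165 and 1197 with DNMT1 siRNA. The groups did not overlap. The coefficient of variation was 1.9% with DNMT1 siRNA and 20.6% with negative siRNA, and 2.9% between the remaining negative siRNA cultures without replicate 2. The log2 fold change was -0.51 (SE 0.135, 95% interval -0.82 to -0.20), 1.42-fold lower, with an adjusted p of 0.0457 in edgeR. It therefore met the limit on FDR, which 12.5% of all tested genes met, but not that on fold change. Without negative siRNA replicate 2 the log2 fold change was -0.32 (adjusted p = 0.00501). Without any 1 of the DNMT1 siRNA cultures the adjusted p was 0.128 to 0.174, and the log2 fold change without negative siRNA replicate 3 was -0.60 (adjusted p = 0.0287), where Acta2 passed both limits.

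Markers of other cells that express Acta2 were looked at beside it. Of the 8 smooth muscle markers 0 were called at the limits in edgeR, their median log2 fold change was -0.39, and their summed level was 933.5 to 1551 RPKM with negative siRNA and 875 to 937.2 with DNMT1 siRNA, so that the groups overlapped. Mylk (log2 fold change 0.42, adjusted p = 0.018, edgeR) and Kcnmb1 (0.13) had values above 0, and all others were below 0. Of those below, only Synpo2 met the limit on FDR (-0.36, adjusted p = 0.029, edgeR), and Myh11 was lowest (-1.49). Negative siRNA replicate 2 had the highest sum of smooth muscle markers and of fibroblast markers as well as the highest Acta2. For the fibroblast markers this held through the collagens. The other 5 summed to 240 RPKM in that culture, between the 235 of replicate 1 and the 246 of replicate 3. Of the 8 fibroblast markers 3 were called lower (Col1a1, Col1a2 and Dcn), beside 2.23% of all tested genes, and their summed level did not overlap between the groups. Their part in the Acta2 difference was not tested.

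Actg2 (ENSMUSG00000059430, chromosome 6, 83512905 to 83536265, minus strand) encodes the gamma-actin of enteric smooth muscle. It had 10.9, 49.0 and 13.8 RPKM with negative siRNA and 14.5, 13.7 and 20.9 with DNMT1 siRNA. A single culture, negative siRNA replicate 2, lay above the 5 others. The log2 fold change of -0.59 (SE 0.519, adjusted p = 0.49, edgeR) became 0.40 without that culture (adjusted p = 0.17). Its 95% interval ran from -1.78 to 0.60, and 318 to 2404 reads were counted per culture.

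Actb (ENSMUSG00000029580, chromosome 5, 142903115 to 142906754, minus strand) and Actg1 (ENSMUSG00000062825, chromosome 11, 120345690 to 120348542, minus strand) encode the cytoplasmic actins of nonmuscle filaments. Actb, often used as a reference gene, had 1497, 1726 and 1577 RPKM with negative siRNA and 1333, 1313 and 1372 with DNMT1 siRNA. The groups did not overlap, and the log2 fold change was -0.26 (SE 0.0826, 95% interval -0.44 to -0.07, adjusted p = 0.0807, edgeR), short of both limits. DESeq2 gave an adjusted p of 0.00847, past the limit on FDR. Scaled by library size alone, with no TMM factors, the log2 fold change was -0.295 (adjusted p = 0.0399, edgeR). Without negative siRNA replicate 2 it was -0.1975 (adjusted p = 0.0433, edgeR), past the limit on FDR.

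Actg1 had only 6.34, 5.42 and 7.07 RPKM with negative siRNA and 6.94, 8.14 and 5.57 with DNMT1 siRNA, with overlapping groups (log2 fold change 0.14, edgeR adjusted p = 0.598, SE 0.156). This count is limited by near copies. Of the 75-base windows of its longest coding transcript, 75 bases being the length of the study's reads, 54.5% occurred letter for letter in transcripts of other genes. The files list reads with several alignments apart from the genes, so such reads are not in the Actg1 count. Alignments of such reads were 90.2% of the reads on genes with negative siRNA and 163% with DNMT1 siRNA, and their part in the Actg1 and Tpm3 values was not tested. The processed pseudogene Gm12715 held 160, 158 and 150 CPM with negative siRNA and 131, 139 and 139 with DNMT1 siRNA, where Actg1 itself held 14.4 to 18.8 and 14.8 to 21.6. A further pseudogene, Gm8399, held 120, 126 and 120 and then 95.9, 92.1 and 102 CPM. Both carried several times the reads of Actg1 in every culture.

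**Figure D2:**
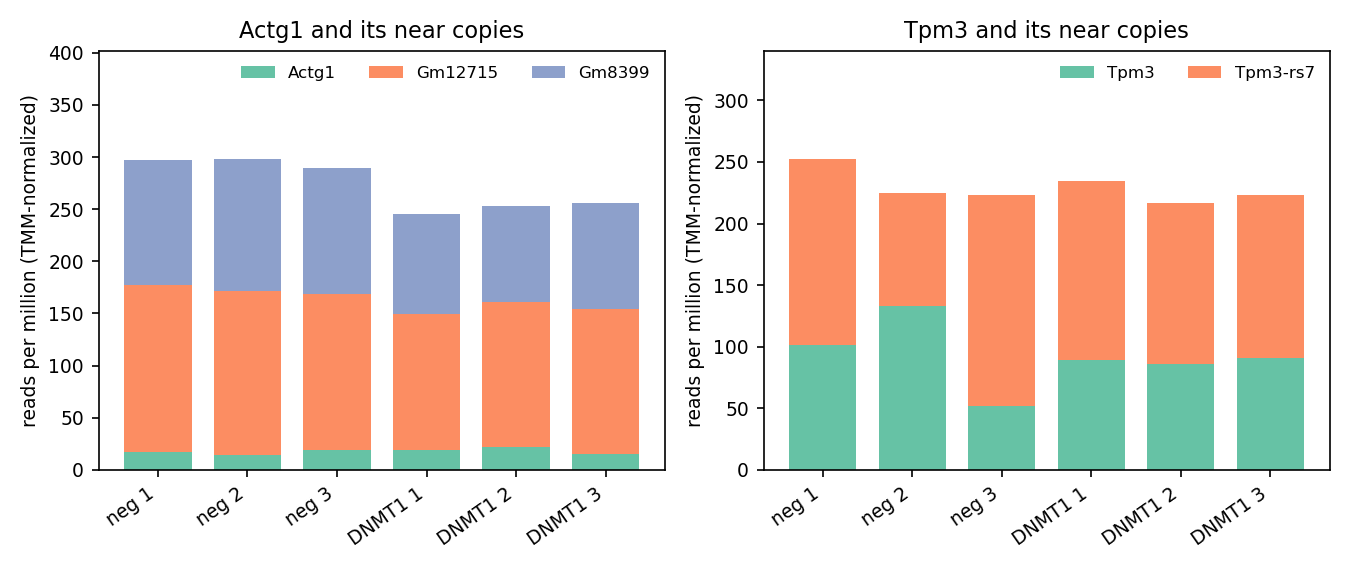
CPM in each culture for Actg1 with its processed pseudogenes Gm12715 and Gm8399 (left) and for Tpm3 with its near copy Tpm3-rs7 (right), stacked from 0. The pseudogenes hold most of the Actg1 sum, and the sum for Tpm3 (217 to 252) varies less between cultures than Tpm3 alone (52.2 to 133).

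With the reads of its near copies added, the Actg1 sum was 298, 298 and 289 CPM with negative siRNA and 246, 254 and 257 with DNMT1 siRNA, and the groups no longer overlapped. The log2 fold change was then -0.23 (SE 0.0598, adjusted p = 0.043, edgeR), the opposite sign to that of Actg1 alone. This value is close to the -0.26 of Actb, and the choice to add the copies was made after the shared windows had been seen. The sign for Actg1 alone was reversed again, to -0.0040, without DNMT1 siRNA replicate 2, so no direction can be read from the Actg1 row.

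Because the study asked which cardiac genes shift with DNMT1 siRNA, the members were also compared with each other within each culture, where library size and its scaling cancel. Actc1 made up 6.22%, 6.86% and 6.79% of the length-scaled reads on the 6 actin genes with negative siRNA and 23.2%, 21.5% and 18.9% with DNMT1 siRNA. The mean share went from 6.62% ± 0.348 to 21.2% ± 2.19 (SD, n = 3 each). Acta2 made up 46.9%, 50.2% and 44.4% and then 36.1%, 36.4% and 37.3%, a mean of 47.1% ± 2.88 against 36.6% ± 0.621. Neither gene overlapped between groups. The share of Actb was 45.2% ± 3.41 against 41.2% ± 1.496 (SD, n = 3 each), with overlap. Acta1, Actg2 and Actg1 were each below 1.2% of the uniquely placed actin reads in every culture. For Actg1 this share is limited by its near copies. With them added, the sum, most of it pseudogene reads, had a mean of 111 RPKM with negative siRNA and 94.8 with DNMT1 siRNA. With Actg1 left out of the pool, the Actc1 share differed by 14.59 percentage points between the groups, against 14.56 with it. Uniquely placed Actg1 reads had a mean share of only 0.18% (negative siRNA) or 0.21% (DNMT1 siRNA), so leaving them out could hardly move the Actc1 share. This comparison therefore cannot show how the Actc1 share depends on Actg1 reads missing from the count. Exact permutation tests (two-sided) gave p = 0.1 for Actc1 and for Acta2, the smallest p that 3 cultures against 3 allow, and 0.25 after adjustment over the 10 shares tested.

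**Figure D3:**
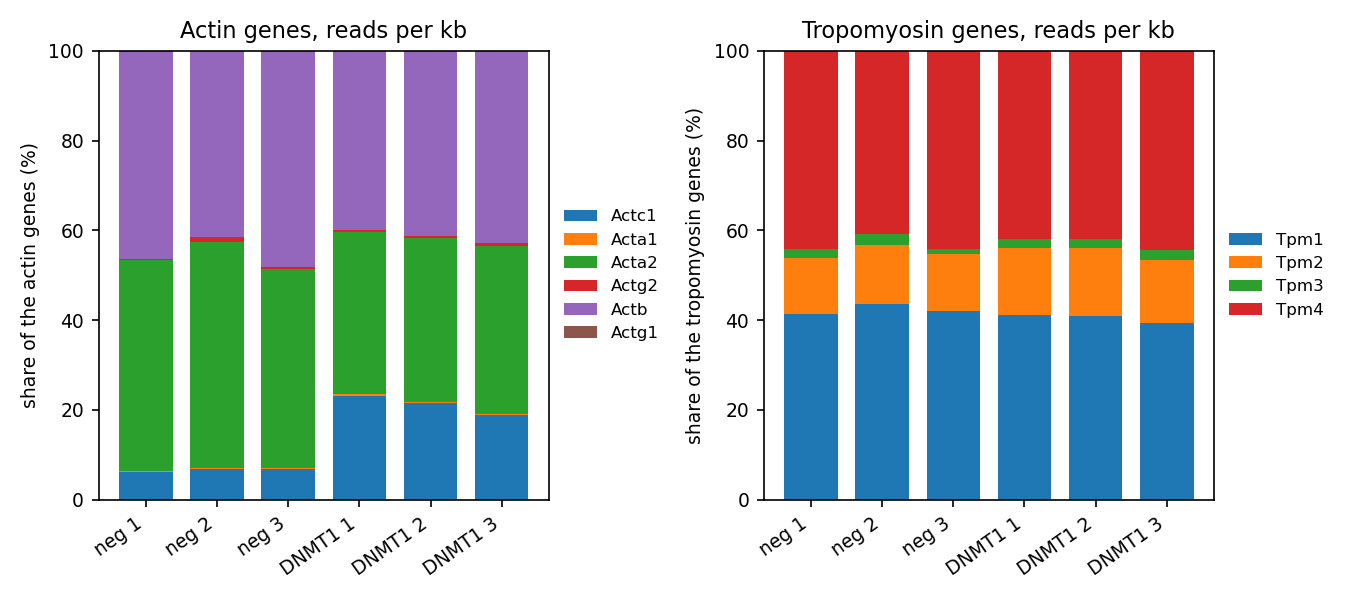
Share of each gene in the length-scaled, uniquely placed reads of its family, in percent, with actins left and tropomyosins right. Bars are the 3 negative siRNA (neg) and 3 DNMT1 siRNA cultures. The Actc1 share is 6.22% to 6.86% with negative siRNA and 18.9% to 23.2% with DNMT1 siRNA, that of Acta2 is lower, and the tropomyosin shares differ by under 2 percentage points between the group means.

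Summed per length, the pool of the 6 actins did not separate the treatments. Its sum was 3567 ± 523.5 RPKM in the negative siRNA cultures and 3254 ± 85.7 after DNMT1 siRNA (n = 3 each, ± SD), with overlapping cultures. Not divided by length, the pool did separate them. It took 0.7867% to 0.9805% of the reads on genes with negative siRNA and 0.7111% to 0.7552% with DNMT1 siRNA. The sarcomeric pair Actc1 and Acta1 together went from 246 ± 46.8 to 701 ± 87.0 RPKM, and the smooth muscle pair Acta2 and Actg2 from 1715 ± 370 to 1207 ± 24.2. Neither pair overlapped between groups, the sarcomeric one being higher and the smooth muscle one lower with DNMT1 siRNA. The sum of all 6 in the DNMT1 siRNA cultures lay within or just below the range of the negative siRNA cultures (3244 to 4171 RPKM).

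Ratios between members were taken gene by gene. For 1 Actc1 read per kb there were 7.53, 7.31 and 6.54 Acta2 reads per kb with negative siRNA and 1.55, 1.70 and 1.98 with DNMT1 siRNA. The log2 ratio differed by -2.04, which is 4.10-fold. The ratio of Actc1 to Actb was 0.135, 0.166 and 0.142 and then 0.584, 0.523 and 0.441, which is 3.49-fold higher (log2 difference 1.80). That of Tpm1 to Actc1 was 1.57, 1.41 and 1.40 and then 0.377, 0.403 and 0.436 (log2 difference -1.85). Each of these ratios was apart between the groups, with p = 0.1 in the exact permutation test and 0.16 after adjustment over the 8 ratios tested. The ratio of Actb to Actg1 overlapped between the groups (p = 0.3, exact permutation test). It rests on the uniquely placed reads of Actg1, from which no direction can be read.

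Tpm1 (ENSMUSG00000032366, chromosome 9, 67022590 to 67049406, minus strand) encodes alpha-tropomyosin, the main tropomyosin of cardiac thin filaments, and also gives rise to nonmuscle isoforms by alternative exons. Its annotation holds 21 transcripts and 6485 bases of exons in all, so that a gene-level count cannot tell muscle from nonmuscle isoforms. The level was 317, 403 and 314 RPKM with negative siRNA and 293, 277 and 264 with DNMT1 siRNA. All DNMT1 siRNA cultures lay below, but the log2 fold change of -0.31 (95% interval -0.56 to -0.06) had an adjusted p of 0.106 in edgeR and 0.0272 in DESeq2. It was -0.18 without negative siRNA replicate 2. The ratio of Tpm1 to Actc1, whose products lie side by side in the cardiac thin filament, was lower with DNMT1 siRNA in every culture, as given above.

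Tpm2 (ENSMUSG00000028464, chromosome 4, 43514711 to 43523765, minus strand) encodes beta-tropomyosin of striated and smooth muscle. It had 95.1, 123 and 95.1 RPKM with negative siRNA and 105, 103 and 94.1 with DNMT1 siRNA. These overlapped, and the log2 fold change was -0.05 (95% interval -0.30 to 0.20, adjusted p = 0.807, edgeR). The ratio of Tpm2 to Tpm1 was the steadiest within groups of the 8 ratios, with SDs of 0.0123 and 0.0339 on the log2 scale. It was 0.300, 0.305 and 0.303 with negative siRNA and 0.359, 0.373 and 0.357 with DNMT1 siRNA. The ratio was higher in all 3 DNMT1 siRNA cultures, by 1.199-fold (log2 difference 0.26, p = 0.1 in the exact permutation test, the smallest it can give).

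Tpm4 (ENSMUSG00000031799, chromosome 8, 72134975 to 72153142, plus strand) encodes a tropomyosin of nonmuscle filaments. It had 339, 379 and 330 RPKM with negative siRNA and 298, 284 and 298 with DNMT1 siRNA. The groups did not overlap, and the log2 fold change of -0.25 (SE 0.0763, 95% interval -0.43 to -0.08) had an adjusted p of 0.0675 in edgeR and 0.0144 in DESeq2. It was almost the same as that of the cytoplasmic actin gene Actb, -0.26. Without negative siRNA replicate 2 the log2 fold change of Tpm4 was -0.19 (adjusted p = 0.052, edgeR). Of its 75-base windows 12.4% were shared with other genes, and the value was -0.24 with the reads of its pseudogene Gm7809 added.

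Tpm3 (ENSMUSG00000027940, chromosome 3, 90072649 to 90100902, plus strand) encodes a tropomyosin of slow muscle and, from other exons, of nonmuscle cells. It had 16.6, 21.9 and 8.57 RPKM with negative siRNA and 14.7, 14.1 and 14.9 with DNMT1 siRNA. The negative siRNA cultures lay on both sides of the DNMT1 siRNA cultures, and the log2 fold change was -0.11 (SE 0.276, adjusted p = 0.828, edgeR). Of the 75-base windows of its longest coding transcript 53.3% occurred elsewhere, nearly all in Tpm3-rs7 (ENSMUSG00000058126), a near copy listed as a gene of its own. Tpm3-rs7 held 151, 91.2 and 171 CPM with negative siRNA and 145, 131 and 133 with DNMT1 siRNA, and Tpm3 held 101, 133 and 52.2 and then 89.4, 85.8 and 90.8. In the negative siRNA cultures the copy was high where Tpm3 was low. The sum was 252, 225 and 224 and then 235, 217 and 224 CPM, for which edgeR gave a log2 fold change of -0.05 and an adjusted p of 0.671 (SE 0.0732). The standard error of the sum was well below that of Tpm3 alone.

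**Figure D4:**
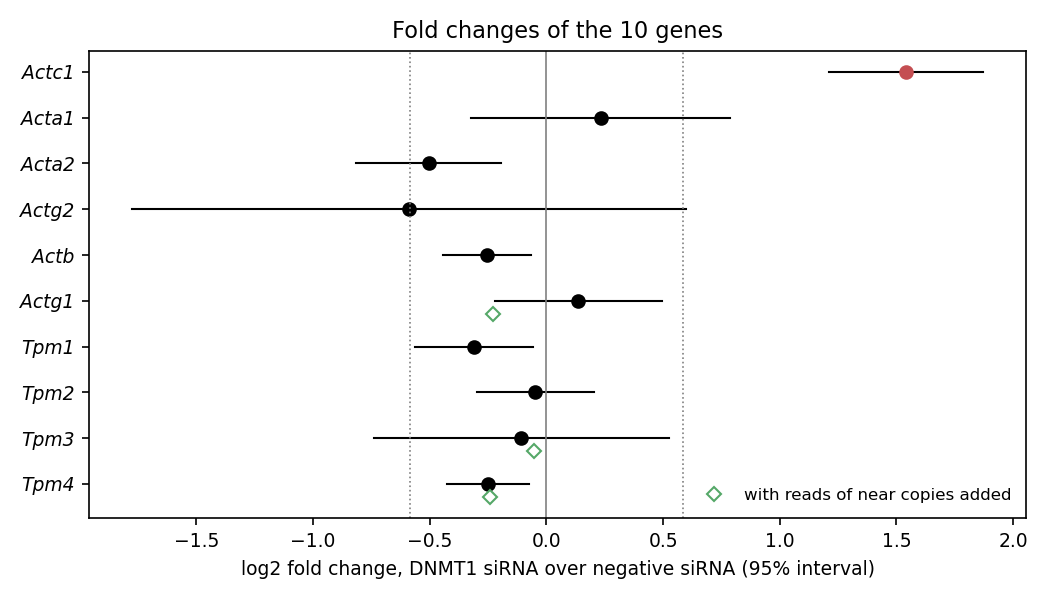
Log2 fold change of DNMT1 siRNA over negative siRNA for each of the 10 genes with its 95% interval (edgeR, n = 3 each), with Actc1 in red as the called gene, dotted lines at a fold change of 1.5 and green diamonds for values with the reads of near copies added. Actc1 at 1.54 lies past the dotted line with its whole interval, and the diamond of Actg1 at -0.23 lies on the other side of 0 from its own value of 0.14.

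Within the tropomyosins the shares moved little. Tpm4 made up 43.1% ± 1.87 of the length-scaled reads in negative siRNA cultures and 42.7% ± 1.45 in DNMT1 siRNA cultures, and Tpm1 42.3% ± 1.11 and 40.5% ± 0.995 (SD, n = 3 each). Tpm2 went from 12.8% ± 0.434 to 14.7% ± 0.597, with no overlap between groups, and Tpm3 from 1.89% to 2.12%. The exact permutation test gave p = 0.1 for Tpm1 and Tpm2, adjusted to 0.25 over the 10 shares. These shares depend on the length used. With the longest transcript in place of the union of exons, Tpm1 made up 58.8% and Tpm4 27.6% of the tropomyosin reads with negative siRNA. The 4 tropomyosins together were 814 ± 98.3 RPKM with negative siRNA and 687 ± 21.3 with DNMT1 siRNA, without overlap.

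In order of mean RPKM with negative siRNA, Acta2 (1690) and Actb (1600) came first, followed by Tpm4 (349), Tpm1 (345), Actc1 (237), Tpm2 (104), Actg2 (24.6), Tpm3 (15.7), Acta1 (9.06) and Actg1 (6.28). Neighbours whose cultures overlapped were Acta2 and Actb, Tpm4 and Tpm1, Actg2 and Tpm3, Tpm3 and Acta1, and Acta1 and Actg1. With DNMT1 siRNA the order was Actb (1339), Acta2 (1190), Actc1 (690), Tpm4 (293), Tpm1 (278), Tpm2 (101), Actg2 (16.4), Tpm3 (14.6), Acta1 (10.6) and Actg1 (6.89). There Actb and Acta2 no longer overlapped, Actc1 lay above both abundant tropomyosins in every culture, and the only overlapping neighbours were Tpm4 and Tpm1, and Actg2 and Tpm3. These orders hold for uniquely placed reads and for the union of exons as the length. With the longest transcript instead, Actb made up 51.5% and Acta2 41.6% of the actin reads with negative siRNA. Tpm1 then made up 58.8% and Tpm4 27.6% of the tropomyosin reads. With near copies added and the gene's own exon length kept, the Actg1 sum was at 111 and 94.8 RPKM, beside Tpm2, and the Tpm3 sum at 38.4 and 37.0, above Actg2. Pseudogene reads made up most of the Actg1 sum, and reads with several alignments are in neither sum.

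Other genes of the thin filament and of actin filaments were described by lists, to be read beside the 4.26% of all tested genes called higher and the 2.23% called lower. Of the troponin genes 6 of 8 were tested, 3 were called higher and 0 lower, and their median log2 fold change was 0.49. The called genes were Tnni3 (cardiac troponin I, 1.55), Tnnc1 (cardiac troponin C, 1.32) and Tnnt2 (cardiac troponin T, 0.61), all cardiac subunits that sit on tropomyosin. Of 13 genes for thin filament capping and length, 5 were called higher and 0 lower, with the highest median of these lists, 0.79. Lmod2 (leiomodin 2, which elongates thin filaments) had 2.42, 3.52 and 2.57 RPKM with negative siRNA and 10.2, 8.65 and 8.52 with DNMT1 siRNA, a log2 fold change of 1.69 (adjusted p = 0.00125, edgeR). Tmod1 (tropomodulin 1, the pointed-end cap) had a log2 fold change of 1.56, Nrap (a scaffold of myofibril assembly) of 1.52, Nebl (nebulette) of 1.30 and Lmod3 of 1.27.

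**Figure D5:**
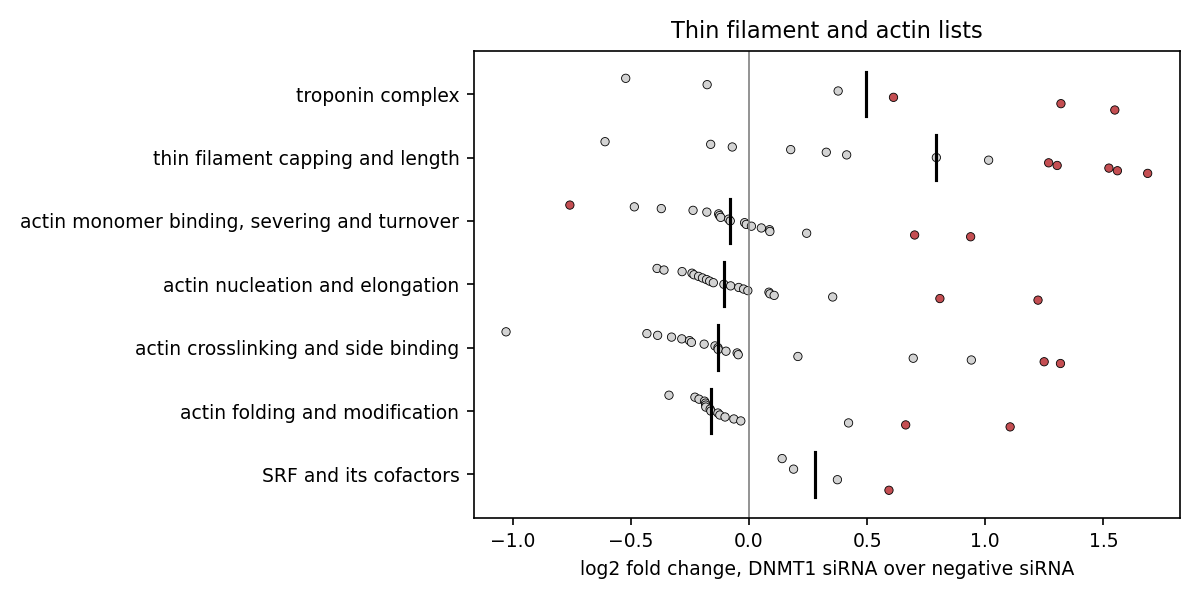
Log2 fold change of each tested gene in 7 thin filament and actin lists, with called genes in red and a bar at the median of each list. Red points lie mainly on the right, and the medians run from -0.16 for folding and modification to 0.79 for thin filament capping and length.

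The lists of general actin regulators were centred near 0. Among 19 genes for monomer binding, severing and turnover, 2 were called higher and 1 lower, with a median of -0.08. Tmsb4x (thymosin beta-4, which holds actin monomers) fell, with 1038, 1269 and 813 RPKM against 615, 615 and 614 (log2 fold change -0.76, adjusted p = 0.0149, edgeR). Cap2 (a cyclase-associated protein of striated muscle, 0.94) and Ssh2 (a phosphatase that activates cofilin, 0.70) were called higher. Of 21 nucleation and elongation genes 2 were called higher and 0 lower (median -0.11). These were Fhod3 (1.22), a formin of cardiac sarcomeres, and Cobl (0.81), a nucleator.

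Crosslinking and side binding genes gave 2 called higher and 0 lower of 19, with a median of -0.13. The called ones, Xirp1 (1.32) and Actn2 (1.25), encode proteins of the intercalated disc and the Z-disc. Folding and modification genes gave 2 higher and 0 lower of 17 (median -0.16), namely Smyd1 (1.11) and Unc45b (0.66), both of which serve the myosin of striated muscle. All 4 genes for SRF and its cofactors of the myocardin family were tested, and 1 was called higher (median 0.28). Myocd (myocardin, the SRF cofactor of cardiac and smooth muscle) had 5.36, 7.84 and 5.44 RPKM with negative siRNA and 9.61, 8.75 and 9.71 with DNMT1 siRNA (log2 fold change 0.59, adjusted p = 0.0361, edgeR). Of the near copies named above, Gm12715, Gm8399, Gm7809 and Tpm3-rs7 were tested and none was called, though Gm8399 met the limit on FDR (log2 fold change -0.34, adjusted p = 0.0168, edgeR).

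Over the 7 lists without the near copies, 17 of 99 tested genes were called higher (17.2%, beside 4.26% of all tested genes) and 1 lower. The lists were chosen with earlier results of these data known, so these shares are a description only. Without 1 culture, 13 to 20 were called higher and 0 to 3 lower. Tnnt2 and Actn2 belong both to these lists and to the cardiomyocyte markers given beside Actc1. The skeletal muscle factors Myod1, Myog, Myf5, Myf6 and Pax7 were at or near 0 reads in all cultures. The remaining skeletal muscle marker, Actn3, had means of 1.64 RPKM with negative siRNA and 2.65 with DNMT1 siRNA, and the groups did not overlap. It was not called (log2 fold change 0.695, adjusted p = 0.1445, edgeR).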

How the data were processed

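RNA-Seq was run on 6 cultures, 3 per siRNA. According to the submitters' processing notes and the study's methods, the authors checked the reads with FastQC, used TopHat2 for mapping to mm10 and HTSeq for counting on Ensembl genes. They deposited raw counts without normalization, 1 file per sample, and the strand setting of the counting and the tool versions are not given in the sources used here. Counts were tested in R 4.3.3 with edgeR 4.0.16 (TMM, filterByExpr with a minimum count of 10 and minimum total count of 15, quasi-likelihood F test, 3 against 3, no block). Called genes had an FDR below 0.05 and a fold change above 1.5. Intervals are 95% and the prior count of log2 CPM was 2. RPKM used the union of GENCODE M21 exons. Shares and log2 ratios were taken within each culture and compared by exact permutation tests in scipy 1.17.1. Alternatives were DESeq2 1.42.0, edgeR's exact test, RLE or library size scaling, other filters and lengths, the replicate number as a block, and leaving out each culture. Reads given to no gene (14.6% to 31.95% of uniquely mapped reads), to several genes or to several places entered no library size. Replicate pairs differed beyond sampling noise (chi-square per degree of freedom 2.7 to 54.46). Named list genes were the up to 4 called genes with the largest change per list, and Lmod3 was added after its value was seen. For the called member, the 3 genes of highest Pearson correlation among those with an average log2 CPM of at least 5 were named. The members and lists were chosen with earlier results of these data known.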

Additional observations from a re-analysis of the deposited data

Results flagged for a closer look

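Reads outside the genes were looked at because the counting rows that hold them enter no comparison of the report, and they stood above the level of the negative siRNA cultures. Of the uniquely mapped reads, 29.3% ± 4.23 (SD, n = 3) lay outside annotated exons with DNMT1 siRNA and 16.4% ± 1.58 with negative siRNA (exact permutation test, p = 0.1, the smallest that 3 against 3 allow). Reads on exons of more than 1 gene made up 6.15% ± 0.174 and 3.62% ± 0.0351 (exact permutation test, p = 0.1). Of the 10 genes, only Actg1 (5.5% of its exon bases, with Gm23419 and Mir6935) and Tpm4 (6.1%, with Gm26586) share exon bases with another annotated gene. Their part in these 2 genes' counts was not tested. Alignments of reads with several places were 163% ± 25.1 of the reads on genes with DNMT1 siRNA and 90.2% ± 1.52 with negative siRNA (SD, n = 3 each, exact permutation test, p = 0.1). Such reads bear most on Actg1 and Tpm3, whose windows are shared with near copies.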

How the results depend on the processing

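Actc1 was called higher, and the only member called higher, in each alternative tried. The count of members called lower went from 0 to 1 with no filter on low counts (Actg2, adjusted p = 1.33e-06, edgeR), with no limit on fold change (Acta2), and over the fits that left out 1 culture it was 0 to 1. In the fit with no filter the adjusted p also fell for Actc1 (5.87e-62) and Acta2 (2.79e-08, edgeR), against 0.00103 and 0.0457 in the main fit. The Actg2 value rests on negative siRNA replicate 2, without which its log2 fold change was 0.40 in the filtered fit. Over all genes, 994 were called higher and 701 lower with no filter, and 1054 and 874 with no limit on fold change. Leaving out 1 culture gave 255 to 823 higher and 112 to 472 lower, the lowest counts without DNMT1 siRNA replicate 2. Genes of the actin lists called lower were 1, but 2 with DESeq2 and 0 to 3 without 1 culture.

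Some directions turned, none of them of a member called in the main fit. Among these members, Actg2 was called lower with no filter on low counts. Actg1 met the limit on FDR with near copies added (adjusted p = 0.043, edgeR). Leaving out 1 culture gave log2 fold changes of -0.95 to 0.40 for Actg2, -0.11 to 0.086 for Tpm2 and -0.40 to 0.21 for Tpm3, each highest without negative siRNA replicate 2, and of -0.0040 (without DNMT1 siRNA replicate 2) to 0.25 for Actg1, which was at -0.23 with near copies added. The share difference then ran from -0.29 to 0.12 percentage points for Actg2, from -0.14 to 0.47 for Tpm3 and from -1.42 to 0.22 for Tpm4 (0.113 with reads not divided by length). The log2 ratio differed by -0.0244 to 0.47 for Tpm3 to Tpm1 and by -0.0061 to 0.085 for Tpm4 to Tpm1. The cause was not tested.

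Cultures with the same replicate number did not deviate together (r = 0.0064, -0.0208 and 0.0274), so no pairing by number was seen in the counts. These correlations cannot show whether cultures were prepared in pairs. With DESeq2, Actb, Tpm1 and Tpm4 met the limit on FDR (adjusted p of 0.00847, 0.0272 and 0.0144) but not that on fold change. With the replicate number as a block, Actc1 stood at a log2 fold change of 1.55 (edgeR adjusted p = 0.00553) and Acta2 at -0.49 (adjusted p = 0.0721), and 513 genes were called higher and 285 lower. The DNMT1 siRNA libraries were the smaller ones, and Acta1 and Actg1 had the fewest reads of the 10 genes.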
